A study of Rattus norvegicus with 34 samples.

Results

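The ubiquitin-conjugating enzymes (E2s, symbols Ube2) and the deubiquitinating enzymes of the ubiquitin-specific protease family (symbols Usp with a number) were examined in rat testis. Members were the array's probe sets whose only gene symbol in the platform annotation begins with Ube2 or with Usp and a digit. This gave 135 probe sets of 72 genes, out of 31042 probe sets tested. Of these, 52 probe sets belonged to 29 Ube2 genes and 83 to 43 Usp genes. A further 8 probe sets that carry a Ube2 or Usp symbol beside another symbol were left out. Usp6nl matched by its letters but encodes a GTPase-activating protein of Rab proteins, not a protease. No probe set of their own was found here for Ube2d3, Ube2v1, Usp16, Usp22 and Usp26.

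The RNA came from the testes of individual adult male Wistar Han rats that had received a triazole fungicide in feed, or none, from gestation day 6 through postnatal day 92. The groups were myclobutanil at 500 ppm (M500, 3 arrays) and 2000 ppm (M2000, 5), propiconazole at 500 ppm (P500, 4) and 2500 ppm (P2500, 5), triadimefon at 500 ppm (T500, 4) and 1800 ppm (T1800, 4), and untreated animals at 0 ppm (Control, 6). Triazoles inhibit a sterol demethylase in fungi, a cytochrome P450 enzyme with relatives in mammals. Each array is 1 animal by its animal number, and the sources used here name no litters, so animals of 1 litter could have been compared as if independent. Control replicates 05 to 07 and T1800 replicates 03 to 05 carry animal numbers of a later series, and all other arrays those of an earlier one. Control thus mixes both series, while M500, M2000, P500, P2500 and T500 hold only the earlier.

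Ubiquitin is activated by an E1 enzyme, passed to an E2 and joined to a target protein, usually with the help of an E3 ligase. Deubiquitinases take it off again. Chains of ubiquitin send proteins to the proteasome, while single ubiquitins on histones change chromatin. Male germ cells use the system heavily, because spermatids replace their histones with protamines and shed most of their cytoplasm, and in mice the loss of several of these enzymes makes males infertile.

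Ube2j1 and Ube2b are shown here by sequence because Ube2j1 had the highest score of all members and Ube2b is the E2 best known for male fertility. The lines give the 250 bases before the annotated start of each gene, from RefSeq on build GRCr8. Ube2j1 lies on the plus strand, chr5:52218557-52218806, and Ube2b on the minus strand, chr10:36763944-36764193. Capitals mark TGACGT or its reverse complement, a core shared by sites of the CREB and CREM factors.
Ube2j1: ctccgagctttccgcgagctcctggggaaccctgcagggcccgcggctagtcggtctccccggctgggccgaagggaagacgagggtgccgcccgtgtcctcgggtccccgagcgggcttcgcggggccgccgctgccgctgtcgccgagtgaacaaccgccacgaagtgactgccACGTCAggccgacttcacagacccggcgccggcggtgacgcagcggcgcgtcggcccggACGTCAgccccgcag
Ube2b: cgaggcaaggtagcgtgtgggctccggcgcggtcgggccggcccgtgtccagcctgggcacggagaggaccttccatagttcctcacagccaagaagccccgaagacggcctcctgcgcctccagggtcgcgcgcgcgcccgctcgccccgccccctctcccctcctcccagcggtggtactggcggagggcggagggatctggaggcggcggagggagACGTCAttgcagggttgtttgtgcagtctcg
Of the 72 genes, 59 had such an entry, and 7 (11.9%) held TGACGT on either strand, against 6.95% of all 33469 promoters of that length. The longer palindrome TGACGTCA was in 0 of the 59 and in 1.59% of all promoters. These matches describe the letters in the window.

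Values are the authors' scores per probe set after quantile normalization between arrays. They behave like logarithms, but their base is not given, so differences are in score units and not folds. As deposited, the arrays were not on a common scale. The highest deposited score was 8.39 in M500 replicate 04 and 8.21 in Control replicate 02, and 3.88 to 5.78 in the other arrays. Differences given with the scores as deposited include this difference in range. The spiked-in controls of known concentration rose by 0.486 to 0.574 score units per doubling (median array 0.513). Of the member probe sets, 17.8% to 42.2% per array lay above the spike of lowest concentration, against 5.88% to 16.3% of all probe sets. Several members followed below lie under that spike, by mean Control score Ube2l6 (-0.204), Usp27x (-0.286), Usp28 (0.387) and Usp6nl probe set 1379341_at (0.0447) among them. RNA quality was read from the actin gap, the difference in score between the 3' and the 5' control probe sets for beta-actin, which is larger where the 5' end is less well represented. Among exposed groups its mean was lowest in T500, at 0.79 ± 0.0748 (SD, n = 4), and highest in P500, at 1.14 ± 0.213 (n = 4), while in Control it was 1.12 ± 0.408 (n = 6). It exceeded 1.4 in 5 arrays, M500 replicate 04, M2000 replicate 05, P2500 replicate 05 and Control replicates 02 and 06. Spermatid markers (14 of 20 measured) stood at a median percentile of 99.9 among all probe sets in Control, and liver markers were high in P2500 replicates 02 to 04. Epididymis markers (2 of 5 measured) were higher in the same arrays too, at 0.225 to 0.232, against -0.206 to -0.0836 in the others. In the 5 arrays of high actin gap spermatid marker scores were 3.42 to 3.57, against 3.54 to 3.69 in the others. Erythrocyte marker scores (2 of 5 measured) were 0.551 to 0.8 there, against 0.818 to 1.42. Sertoli marker scores (8 of 10 measured) were 1.32 to 1.48 in those 5 arrays, against 1.23 to 1.35. What links the gap and these markers was not tested. Because whole testis was measured, fewer cells of a type and less RNA per cell cannot be told apart.

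In untreated testis the members sat high among all probe sets tested. The probe sets tested include 9780 with no gene symbol, while each member has 1. Percentiles among probe sets with a symbol alone are not given here. The median percentile of the members by mean Control score was 80.4, with 86.1 for Ube2 and 76.2 for Usp probe sets. Of the 135, 102 (75.6%) lay above the 50th percentile. Above the 90th lay 39 (28.9%, against 10% of all probe sets by construction), and these were 21 of the 52 Ube2 (40.4%) and 18 of the 83 Usp probe sets (21.7%). With 1 probe set per gene, the one of highest mean score, 33 of the 72 genes were above the 90th percentile. That choice favours high scores, and the same share over all genes is not given here. Probe sets differ in brightness for reasons other than transcript level, so the percentiles place each probe set and do not rank the amounts of different transcripts.

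**Figure D1:**
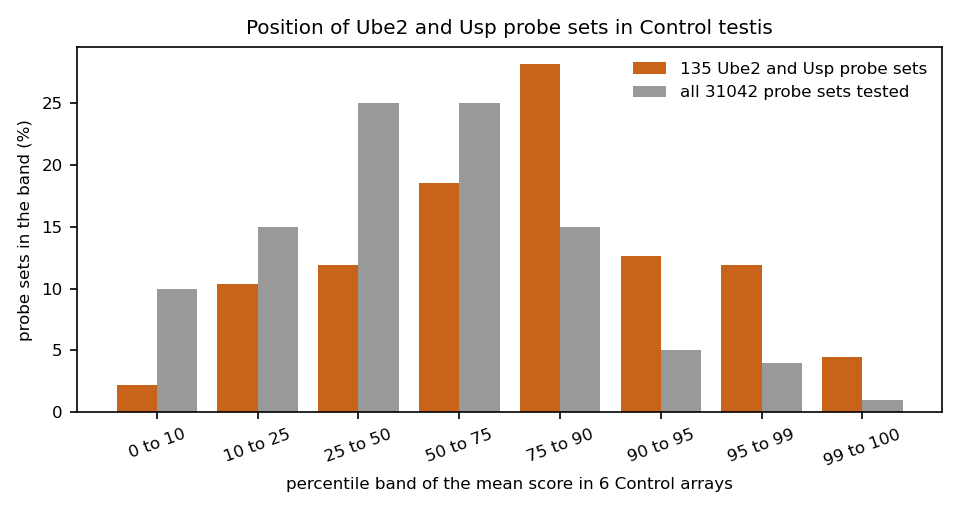
Share of probe sets (%, vertical axis) in each percentile band of the mean score over 6 Control arrays (horizontal axis), for the 135 Ube2 and Usp probe sets (orange) and for all 31042 (grey, fixed by the bands). The members fill the top bands more, with 4.44% of them against 1% of all in the highest band, and the bands under 50 less.

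Above the 99th percentile stood 6 members. Ube2j1, an E2 anchored in the endoplasmic reticulum that serves the disposal of misfolded proteins and is needed for sperm formation in mice, scored 3.26 ± 0.0536 (SD, n = 6) in Control. Usp2, whose loss lowers male fertility in mice, scored 3.21 ± 0.0425. Ube2d2b, a close relative of the broadly acting E2 Ube2d2, scored 2.96 ± 0.0471, and Ube2k, which builds degradation chains, 2.95 ± 0.0678. The Control arrays of these 4 ran from 3.2 to 3.34, 3.15 to 3.27, 2.94 to 3.06 and 2.85 to 3.05 in the order named.

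The other 2 members above the 99th percentile varied more. Ube2n, which joins with an inactive E2 variant to make the chains used in DNA repair and signalling, scored 2.94 ± 0.296 (SD, n = 6), and Control replicates 02 and 06 gave 2.41 and 2.76 while the remaining 4 lay between 3.08 and 3.15. Usp1, which takes ubiquitin off DNA repair proteins and is needed for male fertility in mice, scored 2.82 ± 0.252, and replicates 02 and 06 gave 2.94 and 3.28 while the remaining 4 lay between 2.65 and 2.7. Both thus departed from the rest in the pair of Control arrays of high actin gap, Ube2n downwards and Usp1 upwards. Next in order were Usp12, a protease switched on by WD-repeat partner proteins, at 2.66 ± 0.132, and Ube2l3, an E2 for HECT and RBR ligases, at 2.66 ± 0.325.

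Among the E2s that act on chromatin and the cell cycle, Ube2b was at the 97.7th and its X-linked near twin Ube2a at the 90.7th percentile. Mice without Ube2b, a ligase partner at histones, have sterile males. Ube2b ranged from 2.17 to 2.4 over the 6 Control arrays (median 2.36) and Ube2a from 0.89 to 1.43 (median 1.4). Ube2s and Ube2c, which extend and start chains for the anaphase-promoting complex, were at 98.6 and 95, with means of 2.63 ± 0.347 and 1.72 ± 0.183 (SD, n = 6). Ube2t of the Fanconi anaemia DNA repair pathway was at 90.2, and Ube2v2, the inactive variant that pairs with Ube2n, at 94.5. The E2s of the degradation route at the endoplasmic reticulum beside Ube2j1 were also high, Ube2g2 at 96.9 and Ube2j2 at 95.8.

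Some members serve ubiquitin-like modifiers. Of the E2s for NEDD8, which switches on cullin ligases, Ube2f was at the 97.7th percentile (2.32 ± 0.133) and Ube2m at 96.8 (2.06 ± 0.207, SD, n = 6). Ube2l6, the E2 for the interferon-induced modifier ISG15, was at 25.8 (-0.204 ± 0.0362), and Usp18, the ISG15 protease, at 45.3 (-0.0351 ± 0.0441).

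Of the deubiquitinases, Usp7, which steadies Mdm2 and p53, was at the 98.4th percentile and Usp8, an endosomal protease linked to the acrosome in mice, at 97. Proteases with known histone substrates spread widely, with Usp44 at 96.7 and Usp3 at 70.9. Usp42, which can act on p53, was at 95.5, Usp15 at 95.8, the proteasome-bound Usp14 at 94.6 and the X-linked Usp9x at 80.9. Near the middle were Usp25 at 50.9 and Usp46, a relative of Usp12, at 47.5. The lowest members were Usp27x at 16.3, Usp31 at 11.9 and Usp43 at 11.4, with mean scores of -0.286, -0.331 and -0.336.

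The probe sets of 1 gene could lie far apart. In Control, the 4 for Ube2k averaged 2.95, -0.0687, -0.184 and -0.301, the 4 for Ube2b 2.31, 1.28, -0.307 and -0.331, and the 4 for Usp7 2.54, 1.37, 0.927 and 0.141. Of the 72 genes, 39 had several probe sets and 33 had 1. The value given for a gene is that of its probe set of highest mean over all arrays unless another is named.

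The spread over the Control arrays was larger for the members than for all probe sets by median. The median SD over the 6 Control arrays was 0.0973 for the members and 0.0637 for all probe sets. Among probe sets above the 50th percentile it was 0.129 for members and 0.097 for all. With 1 probe set per gene, the widest spreads were those of Ube2s (SD 0.347), Ube2l3 (0.325) and Ube2n (0.296), and the narrowest those of Ube2ql1 (0.0238), Ube2l6 (0.0362) and Usp36 (0.0364). In the 3 widest, Control replicates 02 and 06, the arrays of high actin gap, stood apart, with means of 2.18 for Ube2s, 2.24 for Ube2l3 and 2.59 for Ube2n, and the other 4 Control arrays averaged 2.85, 2.86 and 3.12.

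No member differed from Control beyond the threshold in any of the 6 exposed groups (limma, Benjamini-Hochberg adjusted p under 0.05 over 31042 probe sets). The same was true of nearly all other transcripts. The share of all probe sets called was 0% in M500, M2000, P500, P2500 and T500, and 0.00644% (2 probe sets) in T1800. The 6 comparisons share the Control arrays. The 95% intervals had median half-widths of 0.0949 to 0.111 score units over the 6 comparisons, and depending on the group 104 to 122 of the 135 intervals lay wholly within 0.25 of no difference. In the sentences that follow, members are named as those with the smallest p in each direction among the 72 probe sets of highest mean per gene. Other probe sets of a gene could have a smaller p, and none passed. The counts at an unadjusted p under 0.05 are set beside the share of all probe sets at that level.

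**Figure D2:**
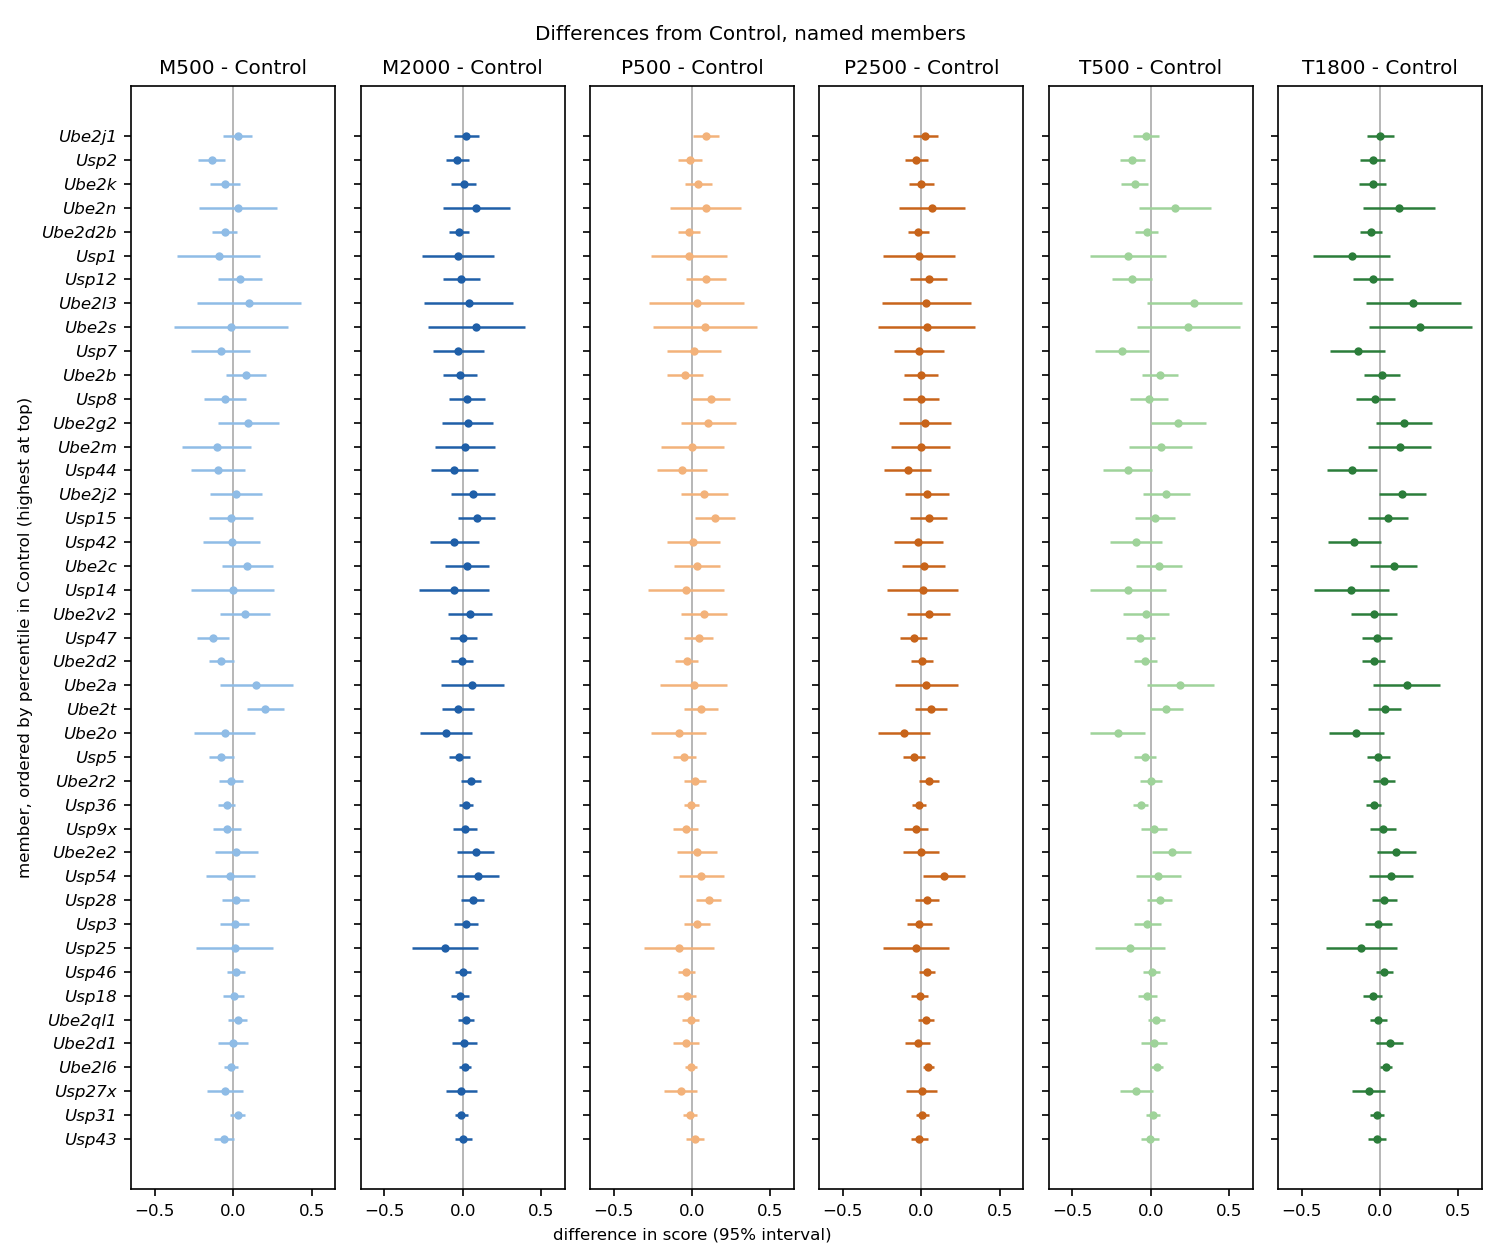
Difference in score from Control (horizontal axis, points) with its 95% interval (lines) for the named members, ordered down the page by their percentile in Control, in a panel for each exposed group. The intervals are widest for Ube2s, Ube2l3, Usp1 and Usp14 and most of them cross 0.

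After myclobutanil at 500 ppm, 11 of 135 members (8.15%) had an unadjusted p under 0.05, 5 higher and 6 lower, against 9% of all probe sets (4.85% higher and 4.15% lower), and 0 were called. Ube2t scored 1.23, 1.44 and 1.57 in the M500 arrays, against 1.08 to 1.31 in Control (median 1.2). Of the 3 arrays, 2 lay above all Control arrays and 1 among them. The difference was 0.205 (95% interval 0.0872 to 0.324, adjusted p = 0.23). Without M500 replicate 01, the lowest of the 3, it was 0.298 (adjusted p = 0.024), and without the 5 arrays of high actin gap, which include the M500 array at 1.57, it was 0.122 (adjusted p = 0.51).

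Usp2 scored 3.1, 3.02 and 3.11 in M500, against 3.15 to 3.27 in Control (median 3.21). The groups did not overlap, every M500 array being the lower. The difference was -0.137 (95% interval -0.222 to -0.0508, adjusted p = 0.26), but with the scores as deposited it turned to 0.47. Its other probe set, 1375549_at, scored 1.78 ± 0.111 in M500 (SD, n = 3) and 1.86 ± 0.17 in Control (n = 6). Usp47, a protease that steadies a DNA repair polymerase, scored 1.67, 1.54 and 1.38 in M500, against 1.56 to 1.78 in Control. Of the 3 arrays, 1 overlapped with Control, and the lowest was the array of high actin gap. Its difference was -0.127 (adjusted p = 0.41), -0.0417 without the 5 arrays of high actin gap, and 0.0524 with the scores as deposited. Ube2a scored 1.37, 1.54 and 1.28 in M500, against 0.89 to 1.43 in Control, a difference of 0.147 (adjusted p = 0.77) that was 0.0398 without the 5 arrays of high actin gap and 0.0195 with array weights.

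Myclobutanil at 2000 ppm gave the fewest members at that level, 1 of 135 (0.741%), against 1.7% of all probe sets (0.934% higher), with 0 called. That member was a Usp6nl probe set, described further on. Usp28, a protease known for steadying Myc, scored 0.553, 0.419, 0.437, 0.359 and 0.485 in M2000, against 0.304 to 0.454 in Control (median 0.39). Most M2000 arrays lay inside the Control range. The difference was 0.064 (95% interval -0.0109 to 0.139, adjusted p = 1). Ube2r2, an E2 of cullin ligases, averaged 0.899 ± 0.0272 in M2000 (SD, n = 5) and 0.845 ± 0.0888 in Control (n = 6), a difference of 0.0543 that was -0.00908 with the scores as deposited. On the lower side were Ube2o, a large enzyme that is E2 and E3 at once, with a difference of -0.108, and Usp25, with -0.112 (adjusted p = 1 for both). Without the 5 arrays of high actin gap these were 0.00371 and -0.0727.

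After propiconazole at 500 ppm, 6 of 135 members (4.44%) had an unadjusted p under 0.05, all higher, against 3.36% of all probe sets (2.07% higher), and 0 were called. Usp28 scored 0.491, 0.542, 0.473 and 0.467 in P500, against 0.304 to 0.454 in Control. The groups did not overlap, every P500 array being the higher. The difference was 0.107 (95% interval 0.0269 to 0.187, adjusted p = 1). Usp15, a protease related to Usp4 and Usp11, scored 1.94, 2.04, 1.98 and 2.08 in P500, against 1.53 to 1.96 in Control (median 1.93). The low value was Control replicate 02, an array of high actin gap. The difference of 0.145 (adjusted p = 1) was 0.0859 without the 5 arrays of high actin gap.

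Usp8 and Ube2j1 were among the 6 as well. Usp8 scored 2.22, 2.19, 2.27 and 2.22 in P500, against 1.99 to 2.4 in Control (median 2.05). Control replicate 06 held the 2.4, and the remaining Control arrays lay below all P500 arrays. The difference was 0.122 (adjusted p = 1), 0.167 without the 5 arrays of high actin gap (adjusted p = 0.046), but it was -0.000613 on the deposited scores. Other probe sets of Usp8 did not share it. Probe set 1373358_at scored 0.371 ± 0.257 in P500 and 0.502 ± 0.186 in Control, a difference of -0.131, and 1397631_at differed by 0.0199. Ube2j1 scored 3.32, 3.36, 3.3 and 3.41 in P500, against 3.2 to 3.34 in Control, a difference of 0.0899 (adjusted p = 1) that was -0.195 with the scores as deposited. On the lower side, Usp5, which takes apart free ubiquitin chains, had a difference of -0.049 and Usp27x one of -0.0712 (adjusted p = 1 for both).

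After propiconazole at 2500 ppm, 3 of 135 members (2.22%) had an unadjusted p under 0.05, all higher, against 4.15% of all probe sets (2.41% higher), and 0 were called. Ube2l6 scored -0.195, -0.111, -0.149, -0.148 and -0.186 in P2500, against -0.247 to -0.161 in Control (median -0.195). The 3 highest P2500 arrays, replicates 02 to 04, were those with liver transcripts. The difference was 0.0457 (95% interval 0.00855 to 0.0828, adjusted p = 0.86). Without those 3 arrays it was 0.0133 (adjusted p = 1), and with array weights it was 0.0615 (adjusted p = 0.026). Usp54 scored 0.804, 0.66, 0.656, 0.605 and 0.59 in P2500, against 0.299 to 0.664 in Control (median 0.547), so that most arrays overlapped. Its difference was 0.146 (adjusted p = 1), and 0.0422 with array weights. On the lower side stood Usp5 with -0.0474 and Ube2o with -0.11 (adjusted p = 1 for both), the last being 0.00797 without the 5 arrays of high actin gap.

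Triadimefon at 500 ppm had the most members at that level, 16 of 135 (11.9%), 4 higher and 12 lower, against 7.62% of all probe sets (4.04% higher and 3.58% lower), with 0 called. Usp2 scored 3.21, 3.18, 2.993 and 2.997 in T500, against 3.15 to 3.27 in Control. Replicates 03 and 04 lay below all Control arrays and the other 2 among them. The difference was -0.116 (95% interval -0.195 to -0.0382, adjusted p = 0.56). Usp36, a nucleolar protease, scored 0.65, 0.659, 0.587 and 0.579 in T500, against 0.641 to 0.726 in Control, with the same 2 arrays the lowest. Its difference was -0.0625 (adjusted p = 0.58).

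The actin gap averaged 0.79 ± 0.0748 in T500 (SD, n = 4) and 1.12 ± 0.408 in Control (n = 6), and members whose scores move with it were among the 16. With the gap as a covariate Usp2 differed by -0.0951 and Usp36 by -0.0447. Usp7 scored 2.41, 2.47, 2.24 and 2.32 in T500, against 2.38 to 2.77 in Control (median 2.46). The difference of -0.181 (adjusted p = 0.64) shrank to -0.0374 once the actin gap entered as covariate and was -0.0768 when the 5 arrays of high gap were left out. Ube2e2 averaged 0.799 ± 0.0377 in T500 (SD, n = 4) and 0.666 ± 0.141 in Control (n = 6), a difference of 0.134 (adjusted p = 0.64) that was 0.0375 with the covariate. Ube2g2 averaged 2.26 ± 0.0945 in T500 and 2.08 ± 0.234 in Control, a difference of 0.176 (adjusted p = 0.66) that was 0.0505 with the covariate. Its other probe set, 1371814_at, averaged 0.643 ± 0.00847 in T500 and 0.67 ± 0.121 in Control, a difference of -0.0268.

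After triadimefon at 1800 ppm, 5 of 135 members (3.7%) had an unadjusted p under 0.05, 1 higher and 4 lower, against 5.84% of all probe sets (3.5% higher and 2.35% lower), and 0 were called. Usp44, a protease of histone H2B and of the spindle checkpoint, scored 1.8, 1.89, 1.86 and 1.85 in T1800, against 1.87 to 2.26 in Control (median 1.93). The T1800 arrays lay close together at the foot of the Control range, while Control replicates 02 and 06 both stood at 2.26. The difference was -0.176 (95% interval -0.335 to -0.0181, adjusted p = 0.77), and -0.0717 once the actin gap was a covariate. Usp42 had a difference of -0.164 (adjusted p = 0.77) that was -0.068 with the covariate. T1800 replicates 03 to 05 and Control replicates 05 to 07 carry animal numbers of a later series, and within it the differences were -0.15 for Usp44 and -0.211 for Usp42 (both with an adjusted p of 0.82). A block for that series gave -0.179 for Usp44 and -0.176 for Usp42. On the higher side were Ube2j2 at 2 ± 0.025 in T1800 (SD, n = 4) and 1.86 ± 0.201 in Control (n = 6), a difference of 0.141 that was 0.0427 with the covariate, and Ube2l6 with a difference of 0.037 (adjusted p = 0.77 for both).

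**Figure D3:**
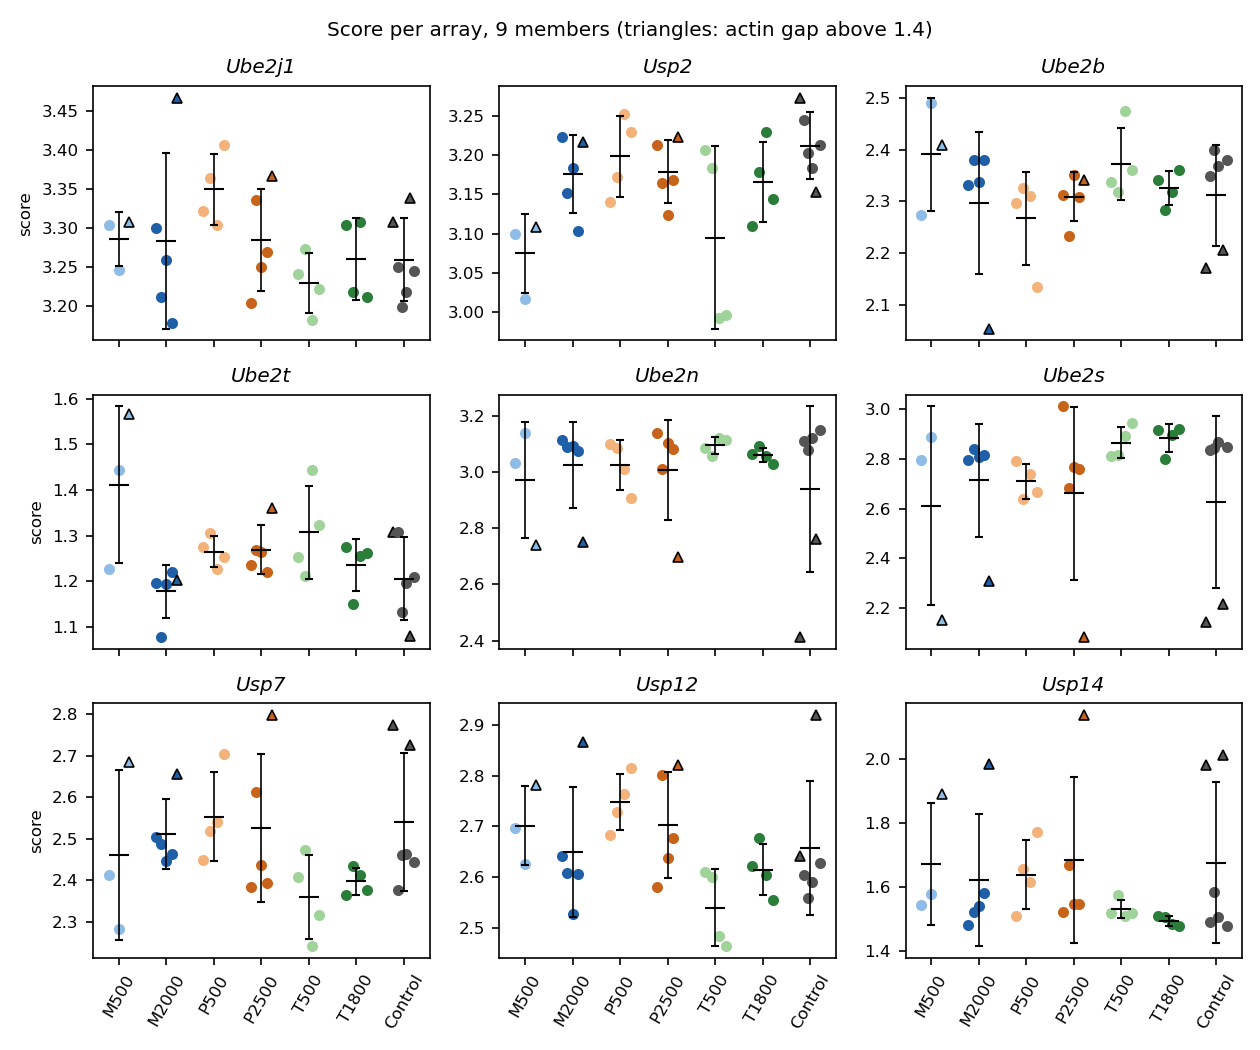
Score (vertical axis) of each array for 9 members by group (horizontal axis, Control at the right), with the group mean and SD as bars and triangles for the 5 arrays of actin gap above 1.4. Usp2 is lower in all 3 M500 arrays and in 2 T500 arrays than in Control, while Ube2n and Ube2s are low and Usp14 high in the triangles of every group that has one, on this normalized scale.

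The limits on E2s known for male fertility can be read from Ube2b and Ube2j1. For Ube2b the 6 differences from Control ran from -0.0455 in P500 to 0.0789 in M500, and the widest reach of any of their 95% intervals was -0.162 in P500 and 0.206 in M500. For Ube2j1 they ran from -0.03 in T500 to 0.0899 in P500, with intervals between -0.115 and 0.175. These limits hold after normalization between arrays, and on the deposited scores the differences spread wider, from -0.21 in M2000 to 0.527 in M500 for Ube2b and from -0.337 in M2000 to 0.71 in M500 for Ube2j1. M500 replicate 04 and Control replicate 02, the arrays of highest deposited score (8.39 and 8.21), enter these differences. Without the 5 arrays of high actin gap Ube2b differed by -0.107 in P500 and 0.00836 in M500, and with array weights its M500 difference turned to -0.0224. The Ube2b mean reached 2.39 ± 0.11 in M500 (SD, n = 3) and was 2.3 ± 0.138 for M2000 (n = 5), 2.27 ± 0.0899 in P500 (n = 4), 2.31 ± 0.0464 in P2500 (n = 5), 2.37 ± 0.0697 in T500 (n = 4), 2.33 ± 0.0338 in T1800 (n = 4) and 2.31 ± 0.0978 in Control (n = 6). The order of these means is not separated by their spread. The Ube2b probe set of next highest mean, 1375642_at, scored 1.33, 1.34, 1.42 and 1.39 in T500, against 1.17 to 1.32 in Control (median 1.3), with every T500 array the higher. Its difference was 0.0934 (95% interval 0.00767 to 0.179, adjusted p = 0.64). The intervals of Ube2s were wider, from -0.377 to 0.347 in M500 and from -0.0725 to 0.588 in T1800.

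The median difference over the members was -0.0191 in M500, 0.0038 in M2000, -0.00231 in P500, -0.0102 in P2500, -0.0175 in T500 and -0.0108 in T1800. Over all probe sets it was 0.00014, -9.4e-05, 0.00071, -0.0036, -0.0012 and -0.0029 in the same order. With the scores as deposited the member medians of M500 and M2000 changed sign, to 0.0403 and -0.0383. The median for the Ube2 probe sets was 0.00119 in M500 and 0.00544 in T500, and that for the Usp probe sets -0.0286 in M500 and -0.0243 in T500.

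Usp6nl probe set 1379341_at had an unadjusted p under 0.05 in each of the 6 comparisons, which share the Control arrays, and it is named after its values were seen. Its mean was 0.148 ± 0.061 in M500 (SD, n = 3), 0.133 ± 0.0679 for M2000 (n = 5), 0.167 ± 0.0315 in P500 (n = 4), 0.159 ± 0.0655 in P2500 (n = 5), 0.129 ± 0.0267 in T500 (n = 4), 0.127 ± 0.00891 in T1800 (n = 4) and 0.0447 ± 0.0403 in Control (n = 6). The differences were 0.103 in M500, 0.0878 in M2000, 0.123 in P500, 0.114 in P2500, 0.0843 in T500 and 0.082 in T1800. In P500 it scored 0.157, 0.213, 0.141 and 0.158, and Control lay between -0.002 and 0.111, so that the groups did not overlap. The smallest adjusted p was 0.12, in P2500. It passed the threshold in P500, P2500 and T1800 with array weights (0.141, 0.141 and 0.0986, adjusted p = 0.019, 6.7e-05 and 0.018), and in P500 and P2500 without the 5 arrays of high actin gap (0.146 and 0.134, adjusted p = 0.041 and 0.02). The gene's other 2 probe sets gave differences of -0.0482 and 0.0297 in P500 and of -0.0231 and -0.0249 in P2500 (adjusted p = 1 for all 4). In T1800 they were -0.0651, lower in 4 of 4 arrays, and 0.0169 (adjusted p = 0.77 and 0.89).

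At 500 ppm, the dose given for all 3 compounds, 3 pairs were compared and p-values were also adjusted over the 3 together. No member passed in any pair, and the share of all probe sets called was 0% in each (limma). M500 against P500 had 11 members (8.15%) with an unadjusted p under 0.05, 1 higher and 10 lower, against 7.48% of all (3.62% higher and 3.86% lower). M500 against T500 had 6 (4.44%), 2 higher and 4 lower, against 6.69% (3.49% higher and 3.21% lower). P500 against T500 had 13 (9.63%), 12 higher and 1 lower, against 5.08% (3% higher and 2.07% lower). The 3 compounds carry the same triazole ring on different side groups. The high doses were 2000, 2500 and 1800 ppm and were not compared.

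In M500 against P500, Usp47 had the smallest p on the lower side and Ube2t on the higher, and in M500 against T500 these were Ube2l6 and Usp12, with 1 probe set per gene. Usp47 scored 1.67, 1.54 and 1.38 in M500 and 1.7, 1.69, 1.7 and 1.71 in P500. The groups did not overlap, the P500 arrays lying close together above. The difference was -0.171 (95% interval -0.282 to -0.0601, adjusted p = 0.47, 0.66 over the 3 pairs) and 0.0894 with the scores as deposited. Usp12 scored 2.7, 2.63 and 2.78 in M500 and 2.61, 2.6, 2.48 and 2.46 in T500, again without overlap and higher in M500. That difference was 0.161 (95% interval 0.00968 to 0.313, adjusted p = 0.73, 0.77 over the 3 pairs) and 0.0822 once the actin gap was a covariate, and on the deposited scores it was 0.734. Ube2t averaged 1.41 ± 0.172 in M500 (SD, n = 3) and 1.27 ± 0.0333 in P500 (n = 4), a difference of 0.146 (adjusted p = 0.61). Usp2 was lower in every M500 array than in any P500 array, by a difference of -0.123 (adjusted p = 0.53) that was 0.751 on the deposited scores.

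Between P500 and T500, Ube2k scored 3, 2.95, 2.98 and 3.03 in P500 and 2.91, 2.93, 2.75 and 2.79 in T500. All P500 arrays were the higher. The difference was 0.14 (95% interval 0.0463 to 0.234, adjusted p = 0.88, 0.68 over the 3 pairs), and it was -0.0611 with the scores as deposited. Usp12 scored 2.68, 2.73, 2.77 and 2.82 in P500 and 2.61, 2.6, 2.48 and 2.46 in T500, also apart, with a difference of 0.208 (95% interval 0.0673 to 0.348, adjusted p = 0.88, 0.68 over the 3 pairs). Without the 5 arrays of high actin gap, none of which is in these 2 groups, 4 members passed (2.96%, against 2.18% of all probe sets). They were Ube2j1 (0.12, adjusted p = 0.047), Usp48 (0.205, 0.046), Usp12 (0.208, 0.018) and Usp7 (0.194, 0.05), while on the deposited scores of all arrays Ube2j1 differed by -0.101, Usp12 by 0.051 and Usp7 by 0.0577. The actin gap itself was 1.14 ± 0.213 in P500 and 0.79 ± 0.0748 in T500 (SD, n = 4 each), and with it as a covariate beside that exclusion 0 members passed.

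Ube2l6 was on the other side of both pairs with T500. It scored -0.217, -0.202 and -0.241 in M500 and -0.179, -0.176, -0.143 and -0.164 in T500, without overlap, a difference of -0.0541 (95% interval -0.101 to -0.00731, adjusted p = 0.73). Against T500, P500 differed by -0.0439 (adjusted p = 0.89).

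The scores of most members moved with the actin gap. With a slope on the actin gap added to the group means, 97 of 135 members (71.9%) passed the threshold, 55 higher and 42 lower with a larger gap, against 57.1% of all probe sets. Above the 50th percentile in Control it was 83 of 102 members (81.4%) against 70.1% of all, and at or below it 14 of 33 (42.4%) against 44.1%. Over the 26 arrays of gap up to 1.33 alone, 37 members (27.4%) passed, against 14.9%. With the 3' minus 5' gap of GAPDH in its place, 95 members (70.4%) did, against 54.8%. This slope was chosen as a question after the data had been seen.

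Usp14 had a slope of 0.613 score units per unit of gap (95% interval 0.52 to 0.706, adjusted p = 1.1e-11), and of 0.378 (adjusted p = 0.0018) over the 26 arrays of lower gap. It scored 1.89 in the high-gap array of M500, 1.99 in that of M2000, 2.14 in that of P2500 and 1.98 and 2.02 in those of Control. The remaining 26 arrays lay between 1.48 and 1.77, below all 5. Usp25 (0.563), Usp1 (0.557), Usp48 (0.465), Usp7 (0.434) and Usp44 (0.387) also had higher scores with a larger gap, and their slopes were positive with the scores as deposited too (0.363, 0.927, 0.537, 0.93 and 0.676). Over the 26 arrays they were 0.266, 0.664, 0.557, 0.526 and 0.398.

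Ube2s ran the other way, with a slope of -0.854 (95% interval -0.968 to -0.739, adjusted p = 1.1e-12), and of -0.407 (adjusted p = 0.011) over the 26 arrays of lower gap. It scored 2.15 in the high-gap array of M500, 2.31 in that of M2000, 2.08 in that of P2500 and 2.14 and 2.22 in those of Control, and 2.64 to 3.01 in all others. Ube2l3 (-0.784), Ube2n (-0.573) and Ube2a (-0.526) also had negative slopes, which were -0.722, -0.33 and -0.528 over the 26 arrays. With the scores as deposited, however, Ube2s, Ube2l3, Ube2n and Ube2a had slopes of 0.0582, 0.147, 0.316 and -0.0249. None of the 4 passed the threshold on those scores (limma, adjusted p = 0.76, 0.4, 0.069 and 0.78). On that scale 101 members (74.8%) passed, against 58.2% of all probe sets, 88 higher and 13 lower, and 77 of the 97 kept their sign. All probe sets moved likewise, with 48.1% higher and 10.1% lower as deposited, and 28.5% and 28.6% after normalization. M500 replicate 04 and Control replicate 02, the arrays of highest deposited score, are among those of high gap. What their range adds to the deposited slopes was not tested.

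**Figure D4:**
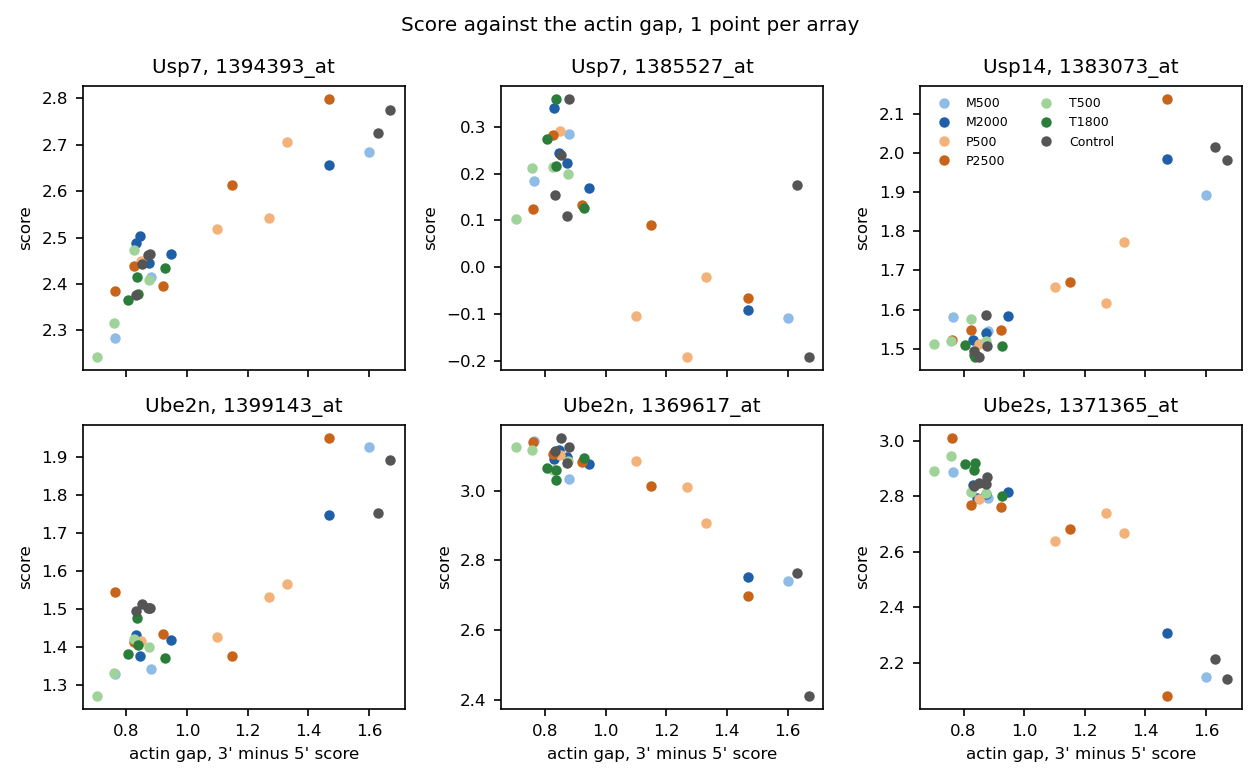
Score (vertical axis) against the actin gap (horizontal axis, 3' minus 5' score) for 6 probe sets of 4 genes, 1 point per array coloured by group. Usp7, Usp14 and 1 probe set of Ube2n climb from left to right, while Ube2s and the other probe sets of Usp7 and Ube2n drop. Scores are after quantile normalization. With the scores as deposited the dropping probe sets of Ube2s and Ube2n had slopes of 0.0582 and 0.316, which did not pass (limma, adjusted p = 0.76 and 0.069).

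Probe sets of the same gene could take opposite slopes. Of the 39 genes with several probe sets, 28 had 2 or more that passed, and in 15 of these (53.6%) they ran in both directions, against 55.7% of all such genes. For Usp7 the slopes were 0.434, 0.377 and 0.289 for 3 probe sets and -0.401 for 1385527_at. The last was -0.514 over the 26 arrays (adjusted p = 0.052), and 1 Control array of high gap did not follow it. For Ube2n they were -0.573 for the probe set of highest mean and 0.514 for 1399143_at, and for Ube2d2 0.631 for 1370523_a_at and -0.402 for 1370525_at. The other probe set of Usp1, 1373538_at, had a slope of -0.471, and that of Ube2a, 1392573_at, one of 0.219. Both ran against the probe set of highest mean of their gene, whose slope is given above. With the scores as deposited 10 of 26 member genes had both directions (38.5%, against 43.8% of all genes), 5 of them among the 15 (Ube2g1, Ube2z, Usp34, Usp42 and Usp7). Over the 26 arrays of lower gap 2 of 4 did, Ube2d2 and Usp34 (50%, against 49.7%). A group mean of such a gene thus depends on the probe set read.

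**Figure D5:**
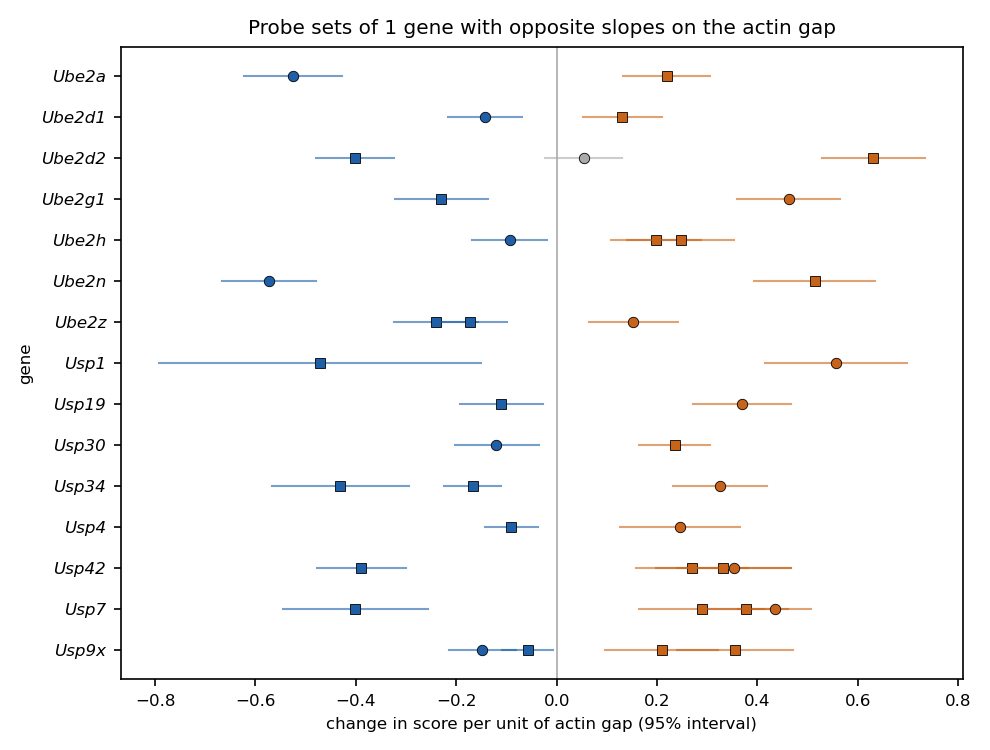
Change in score per unit of actin gap (horizontal axis, points with 95% intervals) for the probe sets of the 15 member genes with called slopes in both directions. Orange marks positive, blue negative and grey slopes that did not pass, and circles mark the probe set of highest mean. Each of the 15 genes has at least 1 orange and 1 blue point.

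Other genes of the ubiquitin route gave no call either. Of 97 listed E1s, E3 ligases and adaptors, other deubiquitinases and ubiquitin precursors, 81 had a probe set of their own, and 0 were called in any of the 9 comparisons (limma). At an unadjusted p under 0.05 there were 2 higher (2.47%) and 4 lower (4.94%) in M500, beside 4.85% and 4.15% of all probe sets. T500 had 1 higher (1.23%) and 5 lower (6.17%), beside 4.04% and 3.58% of all. There were 2 higher (2.47%, beside 0.934% of all) and 0 lower in M2000, and 4 higher (4.94%, beside 2.07%) and 0 lower in P500. P2500 had 1 higher (1.23%, beside 2.41%) and 2 lower (2.47%, beside 1.74%), and T1800 3 higher (3.7%, beside 3.5%) and 1 lower (1.23%, beside 2.35%). Among the pairs, P500 against T500 had 10 higher (12.3%) and 1 lower (1.23%), beside 3% and 2.07% of all. Those groups also stood apart in RNA quality, with a mean gap of 1.14 (P500) against 0.79 (T500). For the 81 genes, counts and differences with the gap as covariate or on the deposited scores are not given here. Each of the 81 was read by its probe set of highest mean, while the shares of all include dim probe sets. The shares are therefore not like for like, and what the gap adds to them was not tested. M500 against P500 had 0 higher and 5 lower (6.17%), beside 3.62% and 3.86%, and M500 against T500 2 higher (2.47%) and 0 lower, beside 3.49% and 3.21%. Ubr4, a giant E3 ligase that reads degradation signals at protein ends, scored 2.11 ± 0.198 in M500 (SD, n = 3), 2.09 ± 0.152 in T500 (n = 4) and 2.37 ± 0.174 in Control (n = 6), differences of -0.257 and -0.283 (adjusted p = 0.27 and 0.52). Rnf40, part of the E3 of histone H2B, scored 0.0841 ± 0.0616 in P500 (n = 4) and -0.0125 ± 0.043 in Control, a difference of 0.0966 (adjusted p = 1). Klhl10, a testis adaptor of cullin ligases needed for male fertility in mice, scored 3.11 ± 0.0613 in P500 and 2.96 ± 0.0711 in T500 (n = 4 each), a difference of 0.15 (adjusted p = 0.74). The median percentile of the 81 in Control was 87.9, and that of the 72 member genes, by the same choice of probe set, 89.2.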

How the data were processed

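RNA of 1 testis sample per array was hybridised to the Affymetrix rat genome-wide expression array. The values are the authors' deposited score per probe set. How they were summarised, their log base and their gain are not given in the sources used here. Of 34 labelled samples, 31 had values, and Control replicate 01, M500 replicate 03 and T1800 replicate 01 had none. From 31099 probe sets 57 controls were left out, and 31042 remained, of which 20826 had 1 gene symbol, 436 several and 9780 none in the platform annotation. The number of arrays limits the precision.

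Scores were quantile normalized between the 31 arrays and fitted with limma 3.58.1 in R 4.3.3, with a mean for each of the 7 groups and 1 shared estimate of spread. Benjamini-Hochberg adjustment ran over all probe sets and the threshold was 0.05. The fit and the calling were tested on simulated data with independent noise for each probe set. That simulation held no normalization step and no actin gap effect, so it does not cover them. Alternatives covered the normalization, RNA quality, array weights, dim probe sets, probe sets per gene, animal number series, the arrays with liver transcripts, the replicate number, the groups in the fit, the variance prior and each array left out. The actin gap slope, and leaving out the 5 arrays with the gap as a covariate, were added after the data were seen.

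Members and lists were chosen with earlier results of these data known. Named were the members of smallest p in each direction of each comparison, a fixed list of well-known members, those highest, lowest, most and least variable in Control, and the genes whose probe sets differed most. Usp6nl, Usp48 and single probe sets beyond the one of highest mean were named after their values were seen. Percentiles are ranks of the mean Control score among the 31042 probe sets.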

Additional observations from a re-analysis of the deposited data

Results flagged for a closer look

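In 258 sets of 4 to 6 arrays of a group, for the 43 named members, 38 values lay far from the rest of their group by Dixon's criterion, which chance alone meets in about 1 in 20 sets. Of these, 22 came from arrays of actin gap above 1.4, and 18 of the 38 were high. Each is given with the range of the other arrays of its group.

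In M2000 replicate 05, of actin gap 1.47, the low values were Ube2a at 0.973 (others 1.35 to 1.44), Ube2b at 2.05 (2.33 to 2.38), Ube2j2 at 1.76 (1.94 to 2), Ube2l3 at 2.2 (2.8 to 2.83), Ube2m at 1.85 (2.08 to 2.17), Ube2n at 2.75 (3.08 to 3.11) and Ube2s at 2.31 (2.79 to 2.84). High in the same array were Usp1 at 3.17 (2.61 to 2.75), Usp14 at 1.99 (1.48 to 1.58), Usp25 at 0.243 (-0.223 to -0.11), Usp27x at -0.149 (-0.334 to -0.325), Usp3 at 0.509 (0.317 to 0.357) and Usp7 at 2.66 (2.45 to 2.5). In P2500 replicate 05, also of gap 1.47, Ube2n was low at 2.7 (3.01 to 3.14) and Usp9x at 0.545 (0.642 to 0.664), and Usp14 was high at 2.14 (1.52 to 1.67) and Usp25 at 0.396 (-0.149 to -0.0112).

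In Control replicate 06, of gap 1.63, Ube2d2b was high at 3.06 (2.94 to 2.95), Usp12 at 2.92 (2.56 to 2.64) and Usp8 at 2.4 (1.99 to 2.11), and Usp5 was low at 0.817 (0.927 to 0.987). In Control replicate 02, of gap 1.67, Usp15 was low at 1.53 (1.89 to 1.96).

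The other 16 values were in arrays of lower gap. In M2000, Ube2t was 1.08 in replicate 02 (1.19 to 1.22) and Usp36 0.644 in replicate 01 (0.706 to 0.73). In P500, replicate 04 had Ube2b at 2.13 (2.3 to 2.33) and Ube2d1 at -0.247 (-0.137 to -0.116). P500 replicate 02 had Ube2d2b at 3.02 (2.91 to 2.93), Ube2j2 at 1.89 (1.95 in the others) and Usp31 at -0.395 (-0.328 to -0.319). In P2500, Ube2d1 was -0.0369 in replicate 01 (-0.185 to -0.142) and Usp47 1.69 in replicate 02 (1.57 to 1.6). In T500, Ube2c was 1.83 in replicate 04 (1.76 in the others), Usp14 1.58 in replicate 02 (1.51 to 1.52) and Usp46 0.0439 in replicate 03 (-0.0283 to -0.0207). In T1800, Ube2k was 2.88 in replicate 02 (2.91 in the others), Ube2t 1.15 in replicate 03 (1.26 to 1.27), Usp3 0.319 in replicate 05 (0.347 to 0.351) and Usp9x 0.724 in replicate 02 (0.672 to 0.679).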

How the results depend on the processing

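The count of 0 members called changed under 6 settings, and the cause was not tested. With array weights it was 1 in P500, 2 in P2500 and 1 in T1800, beside 0.0548%, 2.84% and 0.85% of all probe sets (members 0.741%, 1.48% and 0.741%). Entering the actin gap as covariate gave 1 in M500 and 1 in P2500, beside 0.744% and 0.161% of all. Without the 5 arrays of gap above 1.4 it was 2 in P500, 1 in P2500 and 4 for P500 against T500, beside 0.638%, 0.992% and 2.18% of all, and with both choices 1 in P2500, beside 1.02%. Leaving out 1 array at a time gave 0 to 2 calls in M500 (Ube2t and Ube2z without M500 replicate 01, 0.503% of all) and 0 to 1 in P2500 (Usp6nl without P2500 replicate 01, 0.863% of all), and 0 in the other 7 comparisons. The median difference over the members was 0.0403 in M500, -0.0383 in M2000, -0.0314 in P500, -0.0375 in P2500 and -0.0322 in T1800 with the scores as deposited. In M500 it was 0.000596 without the 5 arrays and 9.55e-05 with the covariate too. Leaving out 1 array at a time moved it between -0.0241 and -0.00849 in M500, 0.000461 and 0.006 in M2000, -0.00703 and 0.000269 in P500, -0.0143 and -0.000907 in P2500, -0.0261 and -0.0065 in T500, and -0.0157 and 0.00205 in T1800. The median percentile in Control was 72.4 among probe sets above the median level, 78.5 in the earlier animal number series, and 79.5 to 80.5 with 1 array left out. The actin gap slope was called in 37 members without the 5 arrays and in 92 to 99 with 1 array left out.

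Same-numbered arrays of different groups did not deviate together by median (correlation 0.0388 over 73 pairs, against 0.0372 over 336 pairs of other numbers). Single same-numbered pairs ran from -0.768 to 0.775, so the median cannot settle whether the numbers pair any animals. With the replicate block the T500 median was -0.000578 and the counts of calls were unchanged at 0. Of 7831 recomputed differences of the 43 named members, 7573 stayed short of the threshold and moved by less than the pooled SD of the groups compared. A further 252 stayed short of it and moved more, and 6 passed it with their sign kept. Among those that did not pass, a change of sign was not counted. The number of arrays limits what could be detected, and a p above the threshold does not show equal levels.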
